A study of Mus musculus with 12 samples.

Results

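The cytosolic ribosomal protein genes were described across 4 sorted fractions of monocytes and macrophages from an allergic skin lesion in mice. The members were chosen by symbol, as every gene named Rpl, Rps or Rplp with a number, a few letter suffixes included, plus Rpsa, with a summed count of at least 50 over all libraries. This gave 86 of the 37775 gene symbols counted. Of these, 43 encode proteins of the large subunit, 30 encode proteins of the small subunit, 3 encode the P stalk (Rplp0, Rplp1 and Rplp2), and 10 are paralogs or retrocopies of another member. All 86 passed the filter on low counts, and they lie on 19 chromosomes. Rpl10l also matched the symbols but was left out, with 1 count in all libraries together. Some genes of ribosomal proteins, such as Rps3a1, Rps27rt and Rack1, have symbols outside the rule and are given separately.

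The lesion was IgE-mediated chronic allergic inflammation (IgE-CAI), a skin reaction that depends on basophils. Wild-type BALB/c mice had received 300 µg of TNP-specific IgE intravenously and then 10 µg of TNP-OVA, the matching allergen, into the ear skin, and cells were taken on day 5. CD45+CD11b+SiglecF-Ly6G- cells were sorted by Ly6C and PD-L2 into classical monocytes (Ly6ChiPD-L2lo), early classical monocyte-derived macrophages (early CMDMs, Ly6ChiPD-L2hi), late CMDMs (Ly6CloPD-L2hi) and resident-like macrophages (Ly6CloPD-L2lo). All 4 fractions therefore share genotype, sensitization, challenge and day, and by design they differ by the gate. Their content of genes of other cell types differed as well, as given below, and the number of cells of each library is not known. Each fraction was represented by 3 libraries, made from 5000 to 80000 sorted cells each. Nothing in the labels ties a library to 1 animal or says that the 3 came from separate animals, so the p-values below measure the spread between these libraries.

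A ribosome is built from ribosomal RNA and a set of proteins of which most are present in a single copy, with the acidic P stalk proteins as the main exception. The P stalk is the flexible arm of the large subunit that recruits and activates the elongation factors. Messenger RNAs of ribosomal proteins are short, abundant and usually start with a run of pyrimidines, through which mTOR signalling sets their translation. The genes are often used as references because their transcripts are present in all cells.

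The libraries held 12537178 to 19844113 counts. The mitochondrial genes took 2.33 to 3.35% of counts, and the single ribosomal RNA symbol took 8.04 to 11.2%. The early CMDM libraries stood apart in keratinocyte genes. The 6 keratinocyte genes (Krt5, Krt14, Krt1, Krt10, Krt15 and Dsp, none at 0) summed to 17096 to 27284 CPM there (counts per 1000000 counts of scaled library size), against 1871 to 4050 in classical monocytes, 2298 to 2615 in resident-like macrophages and 3106 to 3647 in late CMDMs. The 6 fibroblast genes, none at 0, summed to 3254 to 5588 CPM for classical monocytes, 2988 to 4205 for early and 478 to 499 for late CMDMs, and 276 to 358 for resident-like macrophages. The 6 dendritic and Langerhans cell genes, none at 0, gave 170 to 204, 201 to 269, 156 to 193 and 933 to 1239 CPM in that order, highest in resident-like macrophages. The 8 monocyte and macrophage genes (such as Csf1r, Lyz2 and Adgre1) were detected in every fraction, with sums of 6366 to 8353, 2035 to 2798, 4832 to 5816 and 8079 to 9125 CPM in the same order. The 10 general leukocyte genes (such as Ptprc and Coro1a) gave 6052 to 6256, 1662 to 2762, 3717 to 4354 and 5426 to 5671 CPM.

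The 86 genes together took their largest share of the counts in early CMDMs. The summed share was 4.29, 4.46 and 3.24% of counts in the 3 classical monocyte libraries. The early CMDM libraries had 5.62, 6.20 and 4.97%. The late CMDM libraries had 3.82, 4.06 and 3.65%, and the resident-like ones 3.07, 3.74 and 3.53%. Every early CMDM library was above all 9 others, and the other 3 fractions overlapped. The keratinocyte genes followed the members within the early fraction too, with the highest sum in replicate 2 and the lowest in replicate 3 for both, and their part in the result was not tested. In bulk samples, fewer cells of a type and less RNA per cell cannot be told apart.

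The rise was spread over most of the members. Early CMDMs had the highest fraction mean for 80 of the 86 genes (93.0%), against 29.5% of all 22118 genes tested. All 3 early CMDM libraries were above all 9 others for 58 members (67.4%), against 14.6% of all genes. The 6 members with another peak were Rps9, Rpl3l and Rpl39l, highest in classical monocytes, Rps29, highest in late CMDMs, and Rpl10 and Rpl7l1, highest in resident-like macrophages. At the other end, the lowest fraction mean was in resident-like macrophages for 45 members, in late CMDMs for 27 and in classical monocytes for 13. The ratio of the highest to the lowest fraction mean had a median of 1.68 over 84 members (range 1.27 to 2.96, Rpl39l and Rpl3l left out for their low counts), and it exceeded 1.5 for 61 members.

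**Figure D1:**
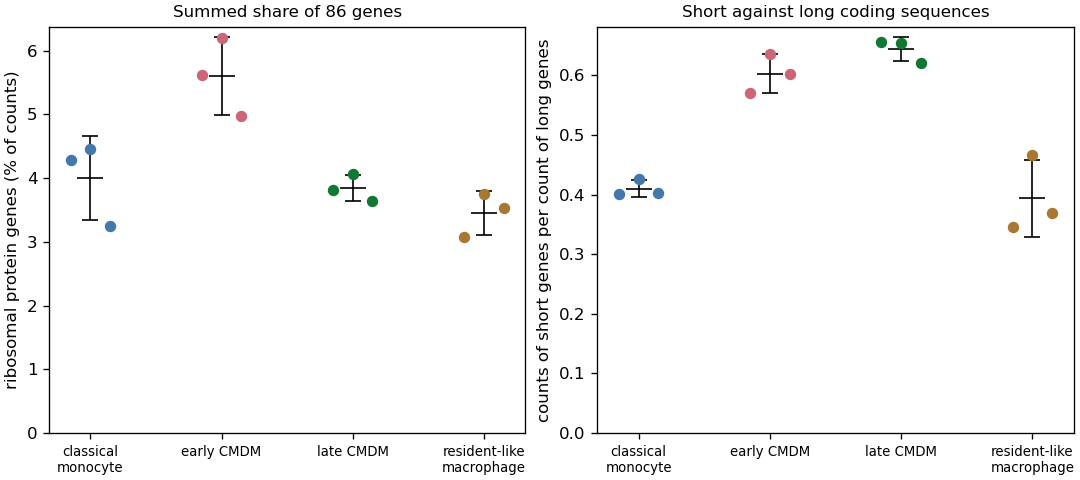
Left, the counts of the 86 ribosomal protein genes as a percent of all counts in each of the 12 libraries. Right, the summed counts of the 42 members with short coding sequences per count of the 40 with long ones. Points are libraries, and bars are the mean and SD of 3. The early CMDM points are above all others on the left, and the early and late CMDM points are above all others on the right.

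Early CMDMs were compared with classical monocytes first, since these fractions share high Ly6C and differ by PD-L2 in the gate. Of the 86 members, 66 were higher in early CMDMs and 1 was lower at an adjusted p under 0.05 (edgeR quasi-likelihood test with Benjamini-Hochberg adjustment over all genes tested), where 44.9% of all genes were called in either direction. The median log2 fold change of the members was 0.61, against -0.01 for all genes. The large subunit had 34 of 43 higher, the small subunit 23 of 30, the P stalk 3 of 3 and the paralogs 6 of 10. All 6 keratinocyte genes were higher in the same comparison, and all 10 leukocyte and all 6 T cell genes were lower. Of 6 endothelial genes 5 were higher and 1 lower. The part of these lists in the result was not tested. Scaled to the leukocyte genes, which puts the median of all genes at 1.55, the members' median was 2.22, and scaled to the members' own sum it was 0.12 with 26 members higher and 5 lower (55.4% of all genes called).

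Rps26, a small subunit protein at the mRNA exit channel that is mutated in some Diamond-Blackfan anemia, rose most. Its CPM was 196, 231 and 170 in the classical libraries and 459, 605 and 455 in the early ones, and the log2 fold change was 1.35 ± 0.16 (SE; edgeR adjusted p = 5.3e-06). No early library came near a classical one. The next were Rplp1 at 1.30 ± 0.16, the small subunit gene Rps28 at 1.25 ± 0.19, the large subunit gene Rpl36a at 1.22 ± 0.17 and the retrocopy Rps4l at 1.15 ± 0.14. Rps19, the gene most often mutated in Diamond-Blackfan anemia, rose by 1.13 ± 0.17 (edgeR adjusted p = 3.7e-05), from 632 ± 121 to 1385 ± 201 CPM (SD, n = 3). Rpl5 and Rpl11, which with 5S ribosomal RNA form the particle that binds Mdm2 when ribosome assembly fails, rose less, by 0.41 ± 0.11 and 0.48 ± 0.13. Rps18, at the head of the small subunit, was in between at 0.75 ± 0.17. Rpl13a (0.40 ± 0.14) and Rps27a (0.41 ± 0.15), made as a fusion with ubiquitin, passed narrowly, and neither did so without classical monocyte replicate 3 (0.24 and 0.25) or early CMDM replicate 1 or 2. Rpsa, also known as the laminin receptor, was at 0.21 ± 0.11 (edgeR adjusted p = 0.13). Rps6, the substrate of S6 kinase, was at 648 ± 86.3 CPM in the PD-L2lo and 674 ± 57.6 CPM in the PD-L2hi fraction (edgeR adjusted p = 0.73). The member called lower was Rpl7l1, an Rpl7 paralog linked to ribosome assembly, with 63.0, 58.2 and 67.0 CPM against 52.7, 52.0 and 50.8 CPM (log2 fold change -0.27 ± 0.09, edgeR adjusted p = 0.016), a call lost without classical monocyte replicate 3 (-0.22) or any early CMDM library (-0.27 to -0.25), and with leukocyte scaling its value was 1.31.

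Late CMDMs were next compared with early CMDMs, from which they differ by low Ly6C. No member was called higher and 53 were lower, where 31.9% of all genes were called. The median was -0.49, against 0.02 for all genes, and it was 0.02 for the members when the libraries were scaled to the members' own sum, which leaves 5 called (50.9% of all genes). The count fell to 35 without early CMDM replicate 2 (22.7% of all genes called). All 6 keratinocyte and all 6 fibroblast genes were lower in the same comparison, and 9 of 10 leukocyte genes were higher. The part of these lists in the result was not tested. The large subunit had 28 of 43 lower, the small subunit 18 of 30, the P stalk 2 of 3 and the paralogs 5 of 10.

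The largest falls among members without overlap were those of Rpl39l (-1.76 ± 0.57), which had few counts and lost the call without early CMDM replicate 1 or late CMDM replicate 1 or 3, Rplp0, the retrocopy Rps4l (-0.85 ± 0.14), Rpl4 and Rpl13. Rplp0, the scaffold of the P stalk, fell from 1780, 1924 and 1458 CPM to 758, 790 and 747 CPM, with a log2 fold change at -1.17 ± 0.11 (edgeR adjusted p = 1.2e-06). Rpl4, which reaches into the exit tunnel of the large subunit, had 1531, 1616 and 1304 CPM in the early libraries and 867, 885 and 833 in the late ones, a change of -0.78 ± 0.10. Neither gene had overlapping libraries. Rpl13 (-0.75 ± 0.15), Rpl5 (-0.73 ± 0.11), Rps6 (-0.63 ± 0.12) and Rpl3 (-0.62 ± 0.10), whose protein lies close to the peptidyl transferase centre, were also lower, as were Rps19 (-0.67 ± 0.16) and Rps18 (-0.67 ± 0.17). The small proteins Rps29 (0.22 ± 0.17), Rpl41 (-0.16 ± 0.15) and Rpl38 (-0.13 ± 0.15) did not pass the test. Of the 82 members with an annotated coding length, 18 of the 42 shorter and 31 of the 40 longer ones were lower.

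Over the whole step from classical monocytes to late CMDMs the members divided. In late CMDMs 25 were higher and 12 lower, where 35.6% of all genes were called, and the median was 0.18 against -0.01 for all genes. The counts were 24 in all without late CMDM replicate 1 (30% of all genes called) or without replicate 2 (28.6%), and 16 higher with 23 lower without classical monocyte replicate 3 (32.3%). With leukocyte scaling, which puts the median of all genes at 0.58, 60 were higher and 1 lower (52.2% of all genes called), and of the lower members Rps6 (0.02), Rps9 (0.11) and Rps3 (0.18) took the other sign. Both subunits were on both sides, with 13 higher and 5 lower in the large subunit and 8 higher and 5 lower in the small one. All 6 fibroblast, all 6 T cell and 7 of 10 leukocyte genes were lower in late CMDMs, while 2 keratinocyte and 5 of 6 endothelial genes were higher. The part of these lists in the result was not tested.

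Rps29, a zinc-binding protein of the small subunit, had the largest rise. Its CPM was 78.0, 98.1 and 78.8 in the classical libraries and 195, 181 and 161 in the late ones, and the log2 fold change was 1.08 ± 0.17 (edgeR adjusted p = 0.00018). Early CMDMs, at 138, 167 and 156 CPM, were close to the late ones, and resident-like macrophages had 51.1, 93.1 and 62.4 CPM. Classical and resident-like libraries overlapped, and all 6 CMDM libraries were above both. Rps28 (0.95 ± 0.19), Rpl37a (0.93 ± 0.17), Rpl41 (0.82 ± 0.15), the smallest ribosomal protein, and Rplp1 (0.79 ± 0.16) followed. In the other direction Rps6 went from 707, 687 and 549 CPM to 426, 449 and 433 CPM, with a log2 fold change at -0.57 ± 0.12 (edgeR adjusted p = 0.0013). Rplp0 (-0.64 ± 0.11) and the small subunit proteins Rps9 (-0.49 ± 0.13) and Rps3 (-0.41 ± 0.11) were lower with it. Rps3 did not pass without classical monocyte replicate 2, where its value was -0.33.

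Resident-like macrophages against late CMDMs gave the opposite division. Here 14 members were higher and 29 lower, where 28.1% of all genes were called, and the median was -0.25 against 0.00 for all genes. This comparison shares the late CMDM libraries with the one before, so that a shift in those libraries enters both with opposite signs. The count fell to 28 without late CMDM replicate 1 (22.5% of all genes called) and to 25 without resident-like macrophage replicate 3 (23.2%), with library sizes alone the split was 4 higher and 38 lower (30% of all genes called), and with leukocyte scaling none was higher and 52 were lower (35.8% of all genes called). Rps29 (-1.38 ± 0.18, edgeR adjusted p = 3.5e-05), Rps28 (-1.27 ± 0.19), Rpl38 (-1.17 ± 0.15), a protein linked to translation of Hox mRNAs, Rpl37a (-1.10 ± 0.17) and Rpl41 (-0.96 ± 0.15) were lowest. The highest were Rplp0 (0.52 ± 0.11), Rpl10 (0.51 ± 0.11), a protein that joins late in the assembly of the large subunit, Rps6 (0.48 ± 0.12), Rps4x (0.47 ± 0.11) and Rps4l (0.47 ± 0.14). Rps4l lost the call without late CMDM replicate 1 or 2 or resident-like macrophage replicate 1 or 3 (0.37 to 0.48). Rpl10 had 760, 745 and 719 CPM in the late libraries and 932, 1102 and 1138 in the resident-like ones, without overlap. In this comparison 3 keratinocyte, 3 fibroblast and all 6 endothelial genes were lower. All 5 basophil and mast cell genes tested, 4 of 6 dendritic and Langerhans cell genes and 6 of 10 leukocyte genes were higher. The part of these lists in the result was not tested.

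Resident-like macrophages and classical monocytes, the fractions with low PD-L2, differed in few members. With 1 higher and 2 lower, 3 of 86 were called where 23.7% of all genes were, and the median was -0.07 against 0.00. The median had the other sign with leukocyte scaling (0.08) and without any of 3 single libraries, and 8 members were called without resident-like macrophage replicate 2. The higher gene was the retrocopy Rps4l, at 8.12, 7.92 and 7.08 CPM against 14.7, 10.7 and 13.8 CPM (log2 fold change 0.77 ± 0.14, edgeR adjusted p = 0.00076). The lower genes were Rpl31 (-0.59 ± 0.17, edgeR adjusted p = 0.016), which did not pass without classical monocyte replicate 1 or resident-like macrophage replicate 1 or 3, and Rpl39l. Rpl39l, a paralog of Rpl39 best known from the testis, had 31, 26 and 14 raw counts in the classical libraries, 29, 16 and 11 in the early, 3, 9 and 3 in the late and 9, 1 and 5 in the resident-like ones, so its fold changes rest on few reads. The classical and resident-like counts did not overlap. All 6 fibroblast genes (median log2 fold change -3.79) and all 6 T cell genes (-2.99) were lower in resident-like macrophages. Of the dendritic and Langerhans cell genes 2 were higher and 1 lower, and 2 of 5 basophil and mast cell genes tested were higher. The part of these lists in the result was not tested.

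Resident-like macrophages against early CMDMs gave 2 members higher and 69 lower, where 46.6% of all genes were called, with a median of -0.68 against 0.03. Scaled to the members' own sum, 8 were higher and 32 lower (60.6% of all genes called) with a median of -0.15. Rps28 (-1.57 ± 0.19), Rps26 (-1.49 ± 0.16), Rpl39 (-1.37 ± 0.17), which lines the exit tunnel, and Rpl37 (-1.31 ± 0.17) were the lowest of those with ample counts. The higher genes were Rpl7l1, with 52.7, 52.0 and 50.8 CPM against 74.3, 71.2 and 67.7 CPM (0.45 ± 0.09, edgeR adjusted p = 0.00039), and Rpl10 (0.43 ± 0.11, edgeR adjusted p = 0.005). With leukocyte scaling these were -0.98 and -1.01. All 6 keratinocyte, all 6 fibroblast and all 6 endothelial genes were lower in resident-like macrophages. All 10 leukocyte genes, all 5 basophil and mast cell genes tested and 5 of 6 dendritic and Langerhans cell genes were higher. The part of these lists in the result was not tested.

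**Figure D2:**
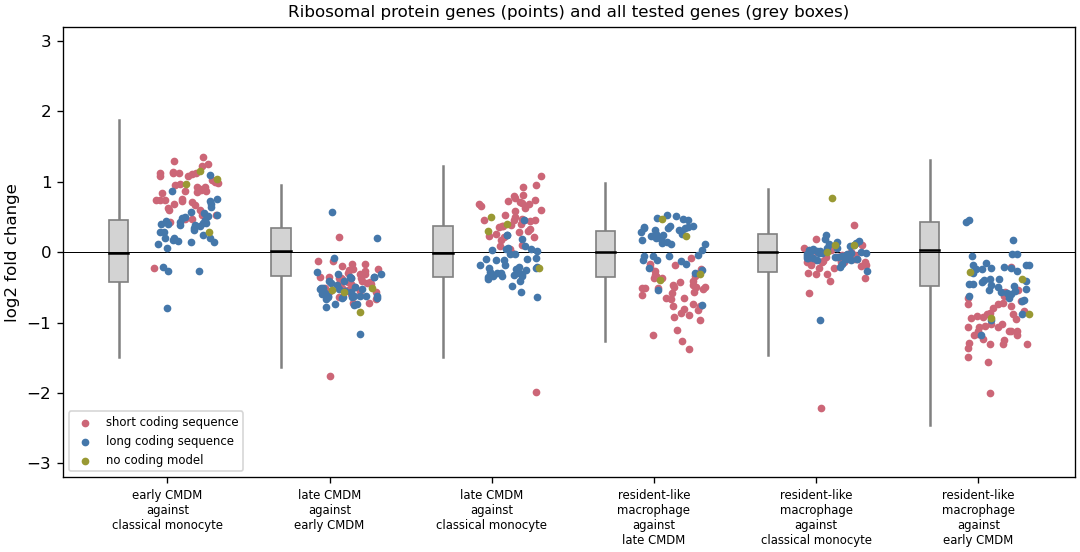
Log2 fold changes of the 86 members in the 6 comparisons, drawn as points coloured by coding length (42 short, 40 long, 4 without a coding model). Grey boxes give the median and quartiles of all 22118 genes tested, with lines to the 5th and 95th percentiles. Short and long members lie on opposite sides of 0 in late CMDMs against classical monocytes, with medians of 0.46 and -0.22, and in resident-like macrophages against late CMDMs, with medians of -0.51 and 0.19.

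The genes that parted in these comparisons differed in size. The coding length of each member was taken from the annotation, and this measure was chosen after the values were seen. It was available for 82 members, ran from 75 to 1257 bases and had a median of 453 bases, by which 42 were called short and 40 long. In late CMDMs against classical monocytes 23 short members were higher and 1, Rpl39l, was lower (not called without late CMDM replicate 3), while 1 long member was higher and 11 were lower, where 18.1% of all genes were higher and 17.5% lower. The members called higher had a median coding length of 336 bases and those called lower one of 780 bases. In resident-like macrophages against late CMDMs 28 short members were lower and none higher, while 13 long members were higher and 1 was lower, where 12.7% of all genes were higher and 15.4% lower. The median coding length was 798 bases for the higher ones and 345 bases for the lower ones.

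Where most members moved one way, the short ones mostly moved further. In early CMDMs against classical monocytes the median log2 fold change was 0.88 for short and 0.39 for long members, and in resident-like macrophages against early CMDMs it was -1.03 and -0.40. From early to late CMDMs it was -0.41 and -0.54, so that the long members fell slightly more. Between the fractions with low PD-L2 both medians were near 0, at -0.11 and -0.01.

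As a description over the 82 members, which share libraries and are no replicates, Spearman's rho between coding length and log2 fold change was -0.72 for early CMDMs against classical monocytes, -0.34 for late against early CMDMs and -0.82 for late CMDMs against classical monocytes. It was 0.85, 0.46 and 0.81 for resident-like macrophages against late CMDMs, classical monocytes and early CMDMs. The same measure over 7465 other genes within the members' range of coding lengths lay between -0.09 and 0.06 in all 6 comparisons. Over the 78 mitochondrial ribosomal protein genes it was -0.20, -0.14, -0.26, 0.27, 0.03 and 0.16, of the same sign as in the cytosolic genes and smaller. The comparisons share libraries, and their values are not independent of each other.

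The same difference could be read within each library, with no scaling between libraries. The counts of the short members per count of the long members were 0.400, 0.426 and 0.403 in classical monocytes. For the CMDMs they were 0.570, 0.636 and 0.602 in the early libraries and 0.656, 0.655 and 0.620 in the late ones. The resident-like libraries had 0.346, 0.467 and 0.369. Every CMDM library was above every library with low PD-L2, while early and late CMDMs overlapped, as did classical monocytes and resident-like macrophages. For the other genes, cut at the same 453 bases, the ratio was 0.209 to 0.272 over all 12 libraries and the fractions overlapped. The sums of keratinocyte genes are given above, and their part in the ratio was not tested.

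**Figure D3:**
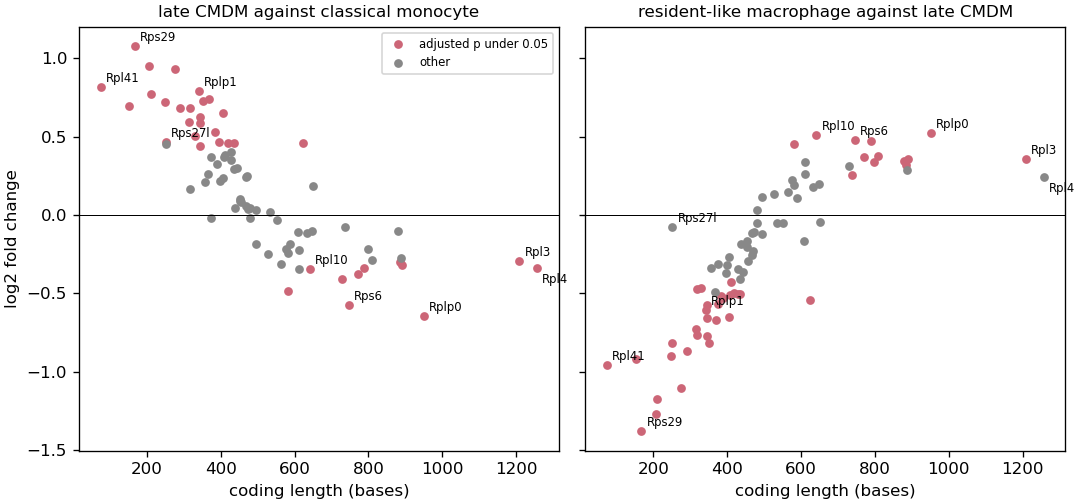
Log2 fold change of each member against its coding length in bases, for late CMDMs against classical monocytes (left, rho -0.82) and resident-like macrophages against late CMDMs (right, rho 0.85). Each point is a gene, coloured where its edgeR adjusted p was under 0.05, and Rpl39l and Rpl3l are not drawn for their low counts. Short genes such as Rps29 and Rpl41 lie above 0 on the left and below it on the right, and long genes such as Rplp0 and Rps6 do the reverse.

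The P stalk showed the same division within a single structure, in which 1 copy of Rplp0 carries several copies of Rplp1 and Rplp2. Rplp0 (chr5:115559467-115563727, plus strand, GRCm38) had 1168, 1278 and 1132 CPM in the classical libraries, 1780, 1924 and 1458 in the early, 758, 790 and 747 in the late and 1081, 1050 and 1165 in the resident-like ones. Its late CMDM libraries were the lowest of all, and its early ones the highest. Rplp1 (chr9:61913284-61914542, minus strand) had 677, 713 and 514 CPM, 1496, 1790 and 1397 CPM, 1144, 1148 and 1002 CPM, and 566, 896 and 702 CPM in the same order. Its late CMDM libraries were therefore above all libraries of classical monocytes and resident-like macrophages. In late CMDMs against classical monocytes the log2 fold changes were -0.64 ± 0.11 for Rplp0 (edgeR adjusted p = 0.00028) and 0.79 ± 0.16 for Rplp1 (edgeR adjusted p = 0.0012), both called in every leave-one-out fit.

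Counts of Rplp1 per count of Rplp0 were 0.580, 0.557 and 0.454 in the classical libraries, 0.840, 0.930 and 0.958 in the early, 1.51, 1.45 and 1.34 in the late and 0.523, 0.853 and 0.603 in the resident-like ones. Late CMDMs were clear of all others. These are ratios of counts, not of proteins, and they are not per length. Like Rplp1, Rplp2 had higher means in the CMDM fractions than in those with low PD-L2, at 260 ± 32.1, 501 ± 86.3, 390 ± 39.9 and 247 ± 74.2 CPM (SD, n = 3). Counts of Rplp2 per count of Rplp1 were 0.395 to 0.437 in classical monocytes and 0.304 to 0.336 in early CMDMs. They were 0.344 to 0.372 in late CMDMs and 0.324 to 0.366 in resident-like macrophages. Every classical library was thus above all libraries of the other fractions in this ratio. In resident-like macrophages against late CMDMs Rplp0 was higher by 0.52 ± 0.11, while Rplp1 (-0.61 ± 0.16) and Rplp2 (-0.66 ± 0.18) were lower. Both of these lost the call without resident-like macrophage replicate 1 (-0.46 and -0.48), and Rplp2 also without late CMDM replicate 2 or resident-like macrophage replicate 3.

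**Figure D4:**
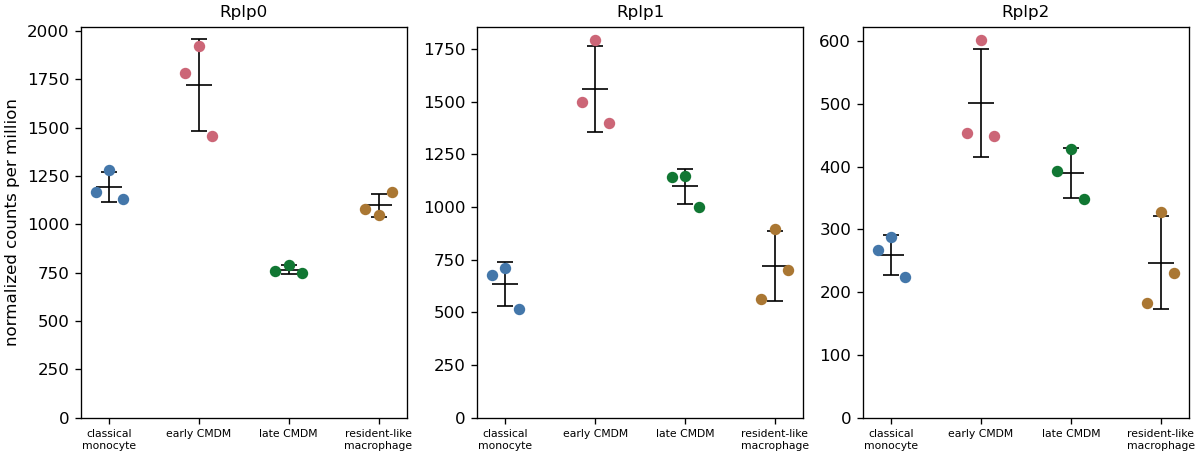
Normalized counts (CPM) of the 3 P stalk genes in each library, with points for libraries and bars for the mean and SD of 3. Rplp0 is lowest in late CMDMs (765 ± 22.5), where Rplp1 (1098 ± 83.3) and Rplp2 (390 ± 39.9) are above classical monocytes (634 ± 106 and 260 ± 32.1).

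Some ribosomal proteins are encoded by a pair of expressed genes, and the balance within pairs differed between fractions. The clearest case was Rps27l, a p53 target that can take the place of Rps27. Both proteins come from reading frames of 252 bases without the stop codon, which differ at 60 positions with no identical stretch longer than 11 bases. They are printed to show how far reads can tell the pair apart, from the GENCODE M21 transcripts of GRCm38, with the differing bases in capitals:
Rps27: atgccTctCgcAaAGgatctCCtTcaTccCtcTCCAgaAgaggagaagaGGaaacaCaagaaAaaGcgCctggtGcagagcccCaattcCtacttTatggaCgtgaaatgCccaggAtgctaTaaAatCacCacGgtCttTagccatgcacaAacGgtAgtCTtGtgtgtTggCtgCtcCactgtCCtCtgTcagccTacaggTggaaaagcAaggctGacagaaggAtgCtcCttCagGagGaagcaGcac
Rps27l: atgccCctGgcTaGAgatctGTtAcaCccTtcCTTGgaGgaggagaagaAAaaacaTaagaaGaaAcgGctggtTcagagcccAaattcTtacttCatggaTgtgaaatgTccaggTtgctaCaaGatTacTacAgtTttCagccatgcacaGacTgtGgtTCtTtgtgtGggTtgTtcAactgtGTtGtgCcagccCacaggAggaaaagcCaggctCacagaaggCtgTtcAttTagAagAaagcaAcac

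Rps27l (chr9:66946086-66949516, plus strand) took 35.4, 33.2 and 29.8% of the pair's counts in the classical libraries, 29.0, 27.5 and 30.0% in the early, 30.6, 32.9 and 36.4% in the late and 48.3, 43.4 and 44.8% in the resident-like ones. All 3 resident-like libraries were above the other 9. In resident-like macrophages against late CMDMs Rps27 (chr3:90212522-90213651, minus strand) fell by 0.81 ± 0.17 on the log2 scale (edgeR adjusted p = 0.0026), and Rps27l was at -0.08 ± 0.14 (edgeR adjusted p = 0.73). Against classical monocytes neither gene passed, with Rps27 at -0.36 ± 0.17 (edgeR adjusted p = 0.16) and Rps27l at 0.39 ± 0.14 (edgeR adjusted p = 0.054). Of the levels, Rps27 had 144 ± 16.1, 264 ± 44.5, 197 ± 29.7 and 112 ± 29.0 CPM (SD, n = 3) from classical monocytes through early and late CMDMs to resident-like macrophages, and Rps27l had 70.5 ± 12.9, 107 ± 11.5, 97.2 ± 3.43 and 92.2 ± 15.3 CPM.

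Rpl22l1, the paralog of the RNA-binding protein Rpl22, took 43.3, 42.7 and 40.4% of its pair in classical monocytes and 32.1, 30.7 and 33.1% in early CMDMs, with late CMDMs (37.7 to 38.3%) and resident-like macrophages (37.6 to 39.7%) between. Rpl36al took 54.5, 54.9 and 50.7% of its pair with Rpl36a in classical monocytes, 42.0, 41.8 and 41.3% in early and 43.7 to 46.7% in late CMDMs, and 49.0 to 50.9% in resident-like macrophages. In both pairs every classical library was above every early one. With the named pseudogenes of Rpl36a counted in, the share of Rpl36al was 44.3, 44.1 and 41.3% in classical monocytes and 33.4, 32.6 and 32.7% in early CMDMs. In early CMDMs against classical monocytes Rpl22 rose by 1.08 ± 0.18 (edgeR adjusted p = 0.00016) and Rpl36a by 1.22 ± 0.17 (edgeR adjusted p = 2.1e-05), against 0.43 ± 0.18 for Rpl22l1, which did not pass (edgeR adjusted p = 0.062), and 0.53 ± 0.16 for Rpl36al, which did not pass without classical monocyte replicate 3 (0.39) or early CMDM replicate 2 (0.42). The coding identity was 77.3% for Rps27l, 69.3% for Rpl22l1 and 87.7% for Rpl36al with the parent, so some reads of the last pair could be assigned to either gene.

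**Figure D5:**
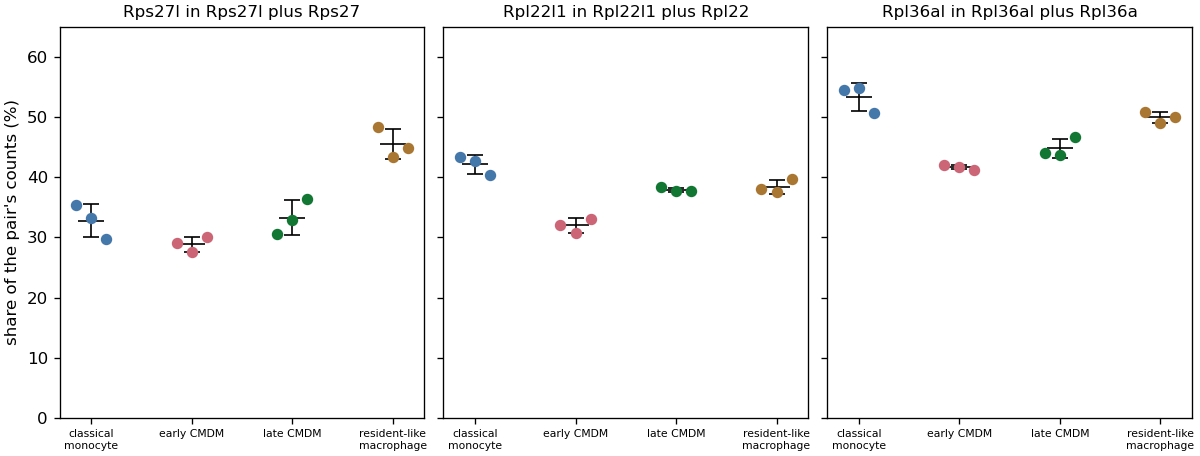
Share of a paralog in the summed counts of its pair, in percent, for Rps27l with Rps27, Rpl22l1 with Rpl22 and Rpl36al with Rpl36a. Points are libraries, and bars are the mean and SD of 3. Rps27l is highest in resident-like macrophages (43.4 to 48.3%), and Rpl22l1 and Rpl36al are highest in classical monocytes.

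The retrocopies Rpl6l, Rpl32l and Rps12l1 held steady shares of their pairs, with fraction means of 12.8 to 13.4%, 2.34 to 2.64% and 15.4 to 15.9%. They match 96.8, 95.8 and 100% of the parent's coding bases. Over these bases reads of Rps12l1 cannot be told from those of Rps12. For Rpl6l and Rpl32l many reads could be assigned to either gene, and how many was not tested. Rps4l, which matches 80.5% of the coding bases of Rps4x, did vary, with 7.71 ± 0.553 CPM in classical monocytes, 13.1 ± 2.09 in resident-like macrophages, 17.1 ± 0.212 in early CMDMs and 9.50 ± 1.14 in late CMDMs (SD, n = 3). Rpl3l, the paralog of Rpl3 known from striated muscle, had 1 to 22 raw counts per library and passed no test. Named pseudogenes exist for 61 members and took 0.616 to 1.29% of all counts. On these symbols lay 65.3% of the counts of Rpl17 and its pseudogenes together, 57.3% for Rps2 and 54.5% for Rpl21, so the levels of such members are uncertain. The same holds for genes named above, with 52.8% for Rps18, 41.7% for Rpl31, 39.4% for Rpl10, 32.4% for Rpl36a and 29.8% for Rps6. Of 202 pseudogenes tested 148 were higher and none lower in early CMDMs against classical monocytes, with a median of 0.69. Of all genes, 44.9% were called in this comparison, with 24.2% higher.

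The promoters were looked at because the members moved together. RefSeq starts on GRCm38.p6 were at hand for 63 of the 86 members. Rps29 and Rplp1, both higher in late CMDMs than in classical monocytes, were not among these and have no window below. For the genes named in late CMDMs against classical monocytes, the 15 bases before and the 15 after the start are printed, with runs of at least 5 pyrimidines that begin with C in capitals:
Rps28 (higher, chr17:33824548-33824577, minus strand): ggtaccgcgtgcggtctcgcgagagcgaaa
Rpl37a (higher, chr1:72711245-72711274, plus strand): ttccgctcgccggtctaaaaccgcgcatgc
Rpl41 (higher, chr10:128549154-128549183, minus strand): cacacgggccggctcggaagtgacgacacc
Rpl39l (lower, chr16:10170213-10170242, plus strand): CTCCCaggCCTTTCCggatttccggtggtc
Rplp0 (lower, chr5:115559452-115559481, plus strand): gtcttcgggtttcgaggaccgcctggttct
Rps6 (lower, chr4:86857353-86857382, minus strand): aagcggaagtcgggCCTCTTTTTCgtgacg
Rps9 (lower, chr7:3704026-3704055, plus strand): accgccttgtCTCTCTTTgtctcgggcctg
Rps3 (lower, chr7:99483695-99483724, minus strand): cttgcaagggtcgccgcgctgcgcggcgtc

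Such a run on the transcribed strand, within 5 bases of the start, was present in 30 of the 63 members (47.6%) and in 5718 of 27025 genes (21.2%). Over the window from 250 bases before to 50 after the start and on both strands, CGGAAG, the core of the sites of ETS-family factors such as GABP, was in 42 members (66.7%) and 18.8% of genes. TATAAA was in 8 members (12.7%) and 15.7% of genes. CGGAAG read on the other strand begins with a pyrimidine run, so these motifs can overlap. Of the printed windows, those of Rpl41 and Rps6 hold CGGAAG. The letters describe annotated starts, which may not be those used in these cells.

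Of the ribosomal protein genes outside the symbol rule, Rps3a1 was higher in early CMDMs than in classical monocytes (log2 fold change 0.31) and lower in late than in early CMDMs (-0.57). Rps27rt, a retrotransposed copy of Rps27, was higher in early (0.92) and in late CMDMs (0.62) than in classical monocytes, and lower in resident-like macrophages than in late CMDMs (-1.03). Rack1, a signalling scaffold on the small subunit, was lower in late CMDMs than in classical monocytes (-0.42) and higher in resident-like macrophages than in late CMDMs (0.42).

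Translation factors and other genes known for a pyrimidine start were followed as 19 genes. In early CMDMs against classical monocytes 11 were higher and 2 lower (44.9% of all genes called), with a median of 0.33, and in late against early CMDMs 14 were lower and none higher (31.9% of all genes), with a median of -0.38. The 6 keratinocyte genes were higher in the first of these comparisons and lower in the second, and their part in the result was not tested. In late CMDMs against classical monocytes 1 was higher and 5 lower (35.6% of all genes), and in resident-like macrophages against late CMDMs 7 were higher and none lower (28.1%). Eef2, which drives translocation, had a mean of 1056 CPM in classical monocytes, 1591 in early CMDMs and 989 in resident-like macrophages, and fell by 0.67 on the log2 scale from early to late CMDMs. Eef1g, a subunit of the exchange factor for Eef1a1, rose by 0.60 and then fell by 0.64 on the log2 scale over the same 2 steps. Nap1l1, a histone chaperone, was 1.09 higher on that scale in resident-like macrophages than in late CMDMs. Eef1a1, which delivers aminoacyl-tRNA, changed by 0.44 in early CMDMs against classical monocytes and by -0.58 in late against early CMDMs.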

How the data were processed

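RNA of the 12 sorted libraries was converted to cDNA from oligo(dT)-selected mRNA (NEBNext Ultra II FS) and sequenced on a NovaSeq. Per the labels and the study's methods, the authors trimmed reads with cutadapt 4.1, aligned them with Bowtie2 2.4.5 in local mode and on 1 strand to mouse reference RNA sequences (Ensembl, GRCm38), and deposited raw counts summed per gene symbol, with no normalization. Reads that fit several transcripts, such as those of ribosomal protein pseudogenes, are assigned to one of them by such an aligner, which can move counts between a member and its copies. Total counts were 12537178 to 19844113 per library.

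Genes that passed filterByExpr by fraction (22118 of 37775, with all 86 members among them) were fitted with edgeR 4.0.16 (R 4.3.3; TMM scaling, robust quasi-likelihood, 1 coefficient per fraction over all 12 libraries; common biological coefficient of variation 13.2%). Each p was adjusted by Benjamini and Hochberg over all 22118 genes, at a threshold of 0.05. The study's tool, TCC, was not run, and its iterative scaling was rebuilt as an alternative. CPM are counts per 1000000 of the TMM-scaled library size. Log2 fold changes are those of the quasi-likelihood fit at edgeR's default setting. A prior count of 2 was used only for log2 CPM, such as those in the check of replicate numbers. Ratios and shares were taken within a library and have no test. Positions are from GENCODE M21 (GRCm38), coding lengths are those of 1 principal or longest transcript per gene, and promoters are RefSeq's on GRCm38.p6. The scripts were tested on simulated counts. Libraries were not paired by replicate number in the main fit, and whether matching numbers mark pairs is not known. Deviations of same-numbered libraries correlated by -0.10 to 0.25, with a median of 0.06 and 4 of 18 pairs over 0.1. For other numbers the median was -0.03, with 1 of 36 pairs over 0.1. A replicate block is among the alternatives.

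The members and lists were chosen with earlier results of these data known. Named genes were the 5 members per comparison with the largest change each way among those called without overlap between the libraries of the groups, and a set of the P stalk, Rpsa, Rps27a, Rps6, Rpl3, Rpl5, Rpl11, Rpl10, Rpl38, Rpl13a, Rps18, Rps19, Rpl41 and the paralogs with their parents, of which the text does not give every gene in every comparison. Rps29 in late against early CMDMs and the classes by coding length were chosen after values were seen. Alternatives were other scalings, DESeq2 1.42.0, other filters and thresholds, a fit to only the 6 libraries compared, a replicate block, and each library left out.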

Additional observations from a re-analysis of the deposited data

How the results depend on the processing

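Under RLE or iterative scaling, DESeq2, a filter of at least 10 counts in every library and a fit to only the 6 libraries compared, the number of members called stayed within 1.5 times in all 6 comparisons. Scaling to the 10 leukocyte genes gave members' medians of 2.22 for early CMDMs against classical monocytes (E/C), -1.51 for late against early CMDMs (L/E), 0.77 for late CMDMs against classical monocytes (L/C) and -0.69, 0.082 and -2.14 for resident-like macrophages against late CMDMs (R/L), classical monocytes (R/C) and early CMDMs (R/E), with 85 called in L/E and 61 in L/C (73.2 and 52.2% of all genes). The median of all genes became 1.55, -0.95, 0.58, -0.44, 0.15 and -1.39 in this order. Signs turned for Rpl7l1 (1.31) in E/C, for Rps6 (0.023), Rps9 (0.11), Rps3 (0.18), Rpsa (0.29), Rpl3 (0.30), Rpl5 (0.27), Rpl10 (0.25) and Rps4x (0.26) in L/C, for Rpsa (-0.12), Rpl3 (-0.0881), Rpl5 (-0.082), Rpl7l1 (-0.18) and Rpl7 (-0.068) in R/L, and for Rpl7l1 (-0.98) and Rpl10 (-1.01) in R/E.

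Scaling to the members' own sum asks only for change relative to the other members. It left 31, 5 and 40 called in E/C, L/E and R/E (55.4, 50.9 and 60.6% of all genes), with medians of 0.12, 0.023 and -0.15. Signs turned for Rps27a (-0.075), Rpl3 (-0.19), Rpl5 (-0.091), Rpl11 (-0.010) and Rpl13a (-0.087) in E/C, for Rplp1 (0.0076), Rpsa (0.0091), Rpl11 (0.049), Rpl13a (0.0066), Rpl7 (0.082) and Rps4x (0.020) in L/E, and for Rps27a (0.058), Rpl3 (0.28), Rpl5 (0.17), Rpl11 (0.016) and Rps4l (0.17) in R/E. The cause was not tested.

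In R/C 8 members were called with library sizes alone, 5 with no filter and 6 with a replicate block (27, 14.2 and 25.9% of all genes). The replicate block gave 71, 69, 50, 53 and 72 in E/C, L/E, L/C, R/L and R/E (46.7, 34.2, 38.2, 30.7 and 48.2% of all genes). A threshold of 0.01 left 32, 20 and 21 in L/E, L/C and R/L (21.8, 24.7 and 17.3% of all genes), and asking also for an absolute log2 fold change of 0.5 left 22 in L/C and 27 in R/L (28 and 21.6%). The members' mean share became 6.31 and 4.37% in early and late CMDMs and 4.03% in resident-like macrophages without genes over 1% of counts. With pseudogene counts added it became 4.81% in classical monocytes, 6.76 and 4.64% in early and late CMDMs and 4.16% in resident-like macrophages.

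Leaving out 1 library gave 54 to 73 members called in E/C, 35 to 58 in L/E, 24 to 39 in L/C, 25 to 49 in R/L, 2 to 8 in R/C and 60 to 74 in R/E. Of all genes, 37.3 to 41.6, 22.7 to 30.6, 28.6 to 33.1, 20.9 to 24.3, 18.8 to 23.1 and 38.3 to 42.7% were called in this order. The members' medians were 0.49 to 0.74, -0.57 to -0.40, 0.062 to 0.27, -0.37 to -0.13, -0.19 to 0.056 and -0.82 to -0.57. The median in R/C turned without classical monocyte replicate 1 (0.00080) or 2 (0.043) or resident-like macrophage replicate 1 (0.056). Mean shares were 3.77 to 4.37, 5.30 to 5.91, 3.73 to 3.94 and 3.30 to 3.64%, and shares of Rps27l in its pair 31.5 to 34.3, 28.3 to 29.5, 31.7 to 34.6 and 44.1 to 46.6%. The ratio of short to long members was 0.402 to 0.414, 0.586 to 0.619, 0.637 to 0.655 and 0.357 to 0.418. The added pseudogene counts were chosen after seeing the data. Members with few counts (Rpl39l, Rpl3l) or near-identical copies are limited in precision.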

Other observations

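The 78 mitochondrial ribosomal protein genes, which serve the separate ribosome inside mitochondria, were higher in 28 cases and lower in none in early CMDMs against classical monocytes (35.9% called, against 44.9% of all genes), and higher in 23 and lower in 2 in late CMDMs against classical monocytes (32.1%, against 35.6%). From early to late CMDMs 4 were higher and 4 lower (31.9% of all genes called), with a median log2 fold change of -0.04. In resident-like macrophages 22 were lower and none higher than in late CMDMs, 28 lower and 1 higher than in early CMDMs, and 3 lower and 1 higher than in classical monocytes, where 28.1, 46.6 and 23.7% of all genes were called.

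Of 15 regulators of ribosome production that were tested, 5 were higher and 1 lower in early CMDMs than in classical monocytes (40% called, against 44.9% of all genes). Myc, a transcription factor that drives ribosome synthesis, had means of 40.2, 92.2, 49.9 and 42.2 CPM from classical monocytes through early and late CMDMs to resident-like macrophages, and rose by 1.20 ± 0.12 (SE, log2) in early CMDMs against classical monocytes (edgeR adjusted p = 6.0e-07). Rrn3, a factor of RNA polymerase I, was higher by 0.44 in the same comparison and changed by -0.45 from early to late CMDMs. Eif4ebp1, a repressor of translation under mTOR control, was 0.53 higher on the log2 scale in late than in early CMDMs and 0.50 higher than in classical monocytes. From early to late CMDMs 7 regulators were lower and 2 higher (31.9% of all genes called), the higher ones being Eif4ebp1 and Tsc1 (0.50).

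Of 8 chaperones of single ribosomal proteins, 2 were higher in early CMDMs than in classical monocytes (44.9% of all genes called) and 4 were lower in late than in early CMDMs (31.9%). Grwd1, the chaperone of Rpl3, had 7.09, 12.6, 8.10 and 8.83 CPM as fraction means and rose by 0.83 in early CMDMs. Ltv1, needed for the small subunit to mature, was 0.48 lower on the log2 scale in late CMDMs than in classical monocytes and 0.47 higher in resident-like macrophages than in late CMDMs. The keratinocyte genes differed in the same comparisons as these lists, and their part in these values was not tested.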
